A study of Mus musculus with 6 samples.

Results

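The genes for actin and tropomyosin, the 2 proteins that form the backbone of the thin filament, were followed through differentiation of C2C12 cells, a mouse myoblast line that fuses into myotubes when growth serum is withdrawn. All 10 genes named for the comparison (the actin genes Acta1, Actc1, Acta2, Actg2, Actb and Actg1 and the tropomyosin genes Tpm1, Tpm2, Tpm3 and Tpm4) were found by symbol among the 43074 gene symbols of the count table, and all 10 passed the filter on low counts with 17433 genes in all. The rule that picks them uses their symbols and no measured value, but the genes were chosen with earlier results of these data known. RNA sequencing gave 2 libraries in each of 3 groups of cells labelled wild type: untreated cells at day 0, cells kept for 4 days in horse-serum differentiation medium with DMSO, and cells kept for 4 days in the same medium with 1 mM 4-phenylbutyric acid (4-PBA), a compound used as a chemical chaperone that also inhibits histone deacetylases. Day 0 cells had neither DMSO nor 4-PBA. The labels do not state whether DMSO was also in the 4-PBA medium. All libraries come from 1 cell line, and nothing in the labels ties a replicate to a culture of its own, so p-values measure the spread between these libraries, which may be technical. In the edgeR tests that spread was estimated for each gene largely from all genes together.

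Mammals have separate genes for the actins of striated muscle, smooth muscle and the cytoplasm. Acta1 encodes the actin of adult skeletal muscle sarcomeres, and Actc1 the actin of the heart, which developing skeletal muscle also makes. Acta2 and Actg2 encode the smooth-muscle actins, and Actb and Actg1 the cytoplasmic actins found in nearly every cell. Tropomyosin is a coiled-coil protein that lies along the actin filament and, with troponin, controls access of myosin to it. Tpm1 supplies the tropomyosin of fast and cardiac muscle, Tpm2 the beta form of skeletal muscle, Tpm3 the slow-muscle form and cytoplasmic forms, and Tpm4 mostly cytoplasmic forms. In the mouse the actin genes lie on chromosomes 8 (Acta1), 2 (Actc1), 19 (Acta2), 6 (Actg2), 5 (Actb) and 11 (Actg1), and Tpm1 to Tpm4 on chromosomes 9, 4, 3 and 8. Each tropomyosin gene yields several proteins by alternative splicing and promoter use, which counts per gene symbol do not separate. Counts of Tpm1 and Tpm2 thus cannot be read as counts of striated-muscle forms alone.

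The start regions of actin genes are a classical setting for the CArG box, the site read by serum response factor (SRF). RefSeq start regions in the mouse build GRCm38.p6 were matched by symbol for 8 of the 10 genes, with none for Actb and Actg2. Each region was read from 250 bases before to 50 bases after the annotated start. The 250 bases before the start of 4 actin genes are shown because they hold a CArG box or a close match. By the changes given further on, the full box stood in Acta1 and Actc1, which rose, and in Actg1, which fell. Acta2, which rose, held only close matches. The part of the box in these changes was not tested. Capitals mark each CArG box and each match to it in which 1 core base is not A or T.
Acta1, chr8:123894776-123895025, minus strand: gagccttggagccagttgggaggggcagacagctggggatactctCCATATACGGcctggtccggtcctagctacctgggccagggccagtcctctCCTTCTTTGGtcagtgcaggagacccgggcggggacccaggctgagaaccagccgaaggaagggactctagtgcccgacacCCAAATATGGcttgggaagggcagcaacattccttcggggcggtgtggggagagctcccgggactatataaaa
Actc1, chr2:114052876-114053125, minus strand: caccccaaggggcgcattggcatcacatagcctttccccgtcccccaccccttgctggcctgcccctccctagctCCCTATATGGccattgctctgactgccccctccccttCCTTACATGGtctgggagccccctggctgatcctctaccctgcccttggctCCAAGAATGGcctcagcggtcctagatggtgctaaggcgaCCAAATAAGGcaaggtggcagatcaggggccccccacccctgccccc
Acta2, chr19:34255374-34255623, minus strand: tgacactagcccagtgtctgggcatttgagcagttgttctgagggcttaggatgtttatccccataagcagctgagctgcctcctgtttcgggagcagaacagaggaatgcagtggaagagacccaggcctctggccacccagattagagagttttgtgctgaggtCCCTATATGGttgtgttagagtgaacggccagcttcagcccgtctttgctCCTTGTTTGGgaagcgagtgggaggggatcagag
Actg1, chr11:120348496-120348745, minus strand: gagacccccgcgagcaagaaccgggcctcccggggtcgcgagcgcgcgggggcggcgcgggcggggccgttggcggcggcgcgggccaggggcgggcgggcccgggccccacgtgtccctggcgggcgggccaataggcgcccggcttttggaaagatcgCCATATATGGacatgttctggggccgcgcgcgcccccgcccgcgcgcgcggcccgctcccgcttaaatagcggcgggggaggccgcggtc
A full CArG box stood at position -73 from the start in Acta1 (CCAAATATGG), at -47 in Actc1 (CCAAATAAGG) and at -90 in Actg1 (CCATATATGG). The same search over all 32851 RefSeq mouse start regions of that length found a full CArG box in 1.63% of them and a full or close match in 9.98%; the motif reads the same on both strands, so full boxes are counted among the full or close matches. Acta2 held no full box in this window and 2 close matches, at -84 and -34. In the windows of Tpm1, Tpm2 and Tpm4 neither form was found, and each of the 2 start regions of Tpm3 held 1 close match. The E-box (CANNTG, either strand) was present in each of the 9 windows and in 72.3% of all start regions. GGAATG, the MCAT element, was found on either strand in Acta1, Acta2 and Tpm1 and in 14.7% of start regions. A match is a string of letters and was not tested as a binding site here.

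The coding sequences of the actin genes are close to each other, which bears on how reads are assigned. The first 60 coding bases are shown for each actin gene from the GENCODE M21 transcripts, with capitals where the base differs from Acta1 in a pairwise alignment. The coding sequences of Actg2 (1131 bases), Actb and Actg1 (1128 bases each) are shorter than that of Acta1 (1134 bases). Gaps in their alignments are neither shown nor marked, so beyond a gap these lines do not stand base under base with Acta1.
Acta1: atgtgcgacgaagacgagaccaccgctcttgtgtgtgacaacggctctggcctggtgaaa
Actc1: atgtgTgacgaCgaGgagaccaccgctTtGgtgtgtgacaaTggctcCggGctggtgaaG
Acta2: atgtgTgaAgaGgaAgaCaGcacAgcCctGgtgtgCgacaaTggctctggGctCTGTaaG
Actg2: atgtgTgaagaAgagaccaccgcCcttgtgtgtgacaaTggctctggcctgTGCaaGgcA
Actb: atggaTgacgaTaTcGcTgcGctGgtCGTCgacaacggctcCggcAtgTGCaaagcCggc
Actg1: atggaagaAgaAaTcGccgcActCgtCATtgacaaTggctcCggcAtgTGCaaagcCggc
Across whole coding sequences, identity between actin genes ran from 81.91% (Actc1 and Actg1, and also Acta2 and Actg1) to 88.65% (Actb and Actg1). The longest stretch without a difference was 77 bases, between Acta1 and Actb. No window of 100 bases was shared between any 2 of the 10 genes, and at 50 bases the share of a transcript's windows also found in another of the 10 genes was at most 2.565%, in Actb. Pseudogenes were closer: 51.05% of the 100-base windows of Actg1 and 45.74% of those of Tpm3 occurred in other annotated genes, led by Gm12715 for Actg1 and Tpm3-rs7 for Tpm3, against 7.639% for Tpm4, 1.098% for Actb and 0 for the other 6. Counts of Actg1 and Tpm3 are therefore uncertain by whatever the counting did with reads that fit more than 1 gene, which is not given in the sources used here. In the annotation, the exons of Actg1 also overlap Gm23419 on the same strand and those of Tpm4 overlap Gm26586 on the opposite strand.

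Total counts were 47908926 to 74697397 per library. Counts were scaled by library size with TMM factors and are given as CPM, as mean ± SD (n = 2) where not per library. Levels of different genes are ranked only per kb of transcript. Count shares and count ratios between genes are not corrected for length except where given per kb. Changes were tested with the quasi-likelihood test of edgeR with Benjamini-Hochberg adjustment over all 17433 genes, and a gene with an adjusted p under 0.05 is said to have been called. The myotube markers followed the labels. The summed level of 6 myotube markers was 70.7 to 74.7 CPM at day 0, 4131 to 4504 CPM with DMSO and 4156 to 4235 CPM with 4-PBA. Much of the day 4 sum was Myh3 (2017 CPM with DMSO, 2043 CPM with 4-PBA). Between 4-PBA and DMSO, 1 of the 6 was called, Mymk, which was lower (log2 difference -0.17, adjusted p = 0.0134), beside 4.90% of all genes. The median log2 difference over the 6 was -0.10. The part of myotube content in the differences between the day 4 groups was not tested. Mki67, a marker of cycling cells, fell by 1.56 on the log2 scale with DMSO. The 5 myoblast markers did not fall together: their sum was 1356 to 1366 CPM at day 0 and 2892 to 2935 CPM with DMSO, with Des and Cdh15 called higher (log2 fold changes 1.33 and 0.92), Myod1 slightly higher (0.22) and Myf5 and Msc called lower (-1.14 and -1.87). Between 4-PBA and DMSO, Des was called lower (-0.11, adjusted p = 0.00881), Cdh15 higher (0.11, adjusted p = 0.0171) and the other 3 were not called. Sums over 5 markers each stayed at or below 0.412 CPM for adipocytes, 2.65 CPM for endothelium and 6.11 CPM for macrophages and blood. Fibroblast markers (5 genes) summed to 316 to 318 CPM at day 0, 1729.5 to 1839.8 CPM with DMSO and 1766 to 1767 CPM with 4-PBA, nearly all of it Col1a1 and Dcn. Both were called higher with DMSO, as was Lum, from 0.0142 to 0.767 CPM. Pdgfra was called lower, from 13.9 to 11.1 CPM (log2 fold change -0.32, adjusted p = 0.00153), and Thy1 reached at most 0.0412 CPM in any library. The part of the fibroblast markers in the results was not tested.

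Differentiation without the drug was followed by setting the DMSO libraries against those of day 0. The 4 muscle actin genes and Tpm1 and Tpm2 rose, the striated actins by far more than the others, and the 2 cytoplasmic actin genes, Tpm3 and Tpm4 fell, with changes of -27.2% to -20.8%. All 10 genes were called, 6 higher and 4 lower, where 66.3% of all genes tested were called, 33.8% higher and 32.6% lower. The median log2 fold change over the 10 genes was 1.22 and over all genes 0.023. Without regard to sign, the median log2 change over all genes was 0.477, larger than each of the 4 falls. In these bulk libraries, fewer cells making a transcript and less transcript per cell cannot be told apart.

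Acta1 levels were 39.1 and 37.3 CPM at day 0 and 1697 and 1758 CPM with DMSO. The groups were far apart and the replicates of each differed little. The mean rose from 38.2 ± 1.27 to 1727 ± 43.3 CPM, which is 45.3-fold, with a log2 fold change of 5.50 (SE 0.0354, adjusted p = 4.29e-45). Actc1 was at 4.16 and 4.52 CPM at day 0, resting on 202 and 317 counts, and at 380 and 389 CPM with DMSO. Its rise from 4.34 ± 0.254 to 384 ± 6.34 CPM was 88.1-fold, with a log2 fold change of 6.46 (SE 0.0468, adjusted p = 5.44e-44). Because Actc1 started lower and rose further, the count of Acta1 relative to Actc1 went from 9.40 and 8.26 in the day 0 libraries to 4.47 and 4.52 with DMSO. Beside the cardiac actin gene, the summed level of 5 other cardiac markers went from 1.07 to 1.21 CPM at day 0 to 12.1 to 12.2 CPM with DMSO, mostly Myh6 (10.5 CPM). Tnni3 was called higher as well, from 0.601 to 1.39 CPM (log2 fold change 1.20, adjusted p = 2.71e-04). Ryr2 was at 0.385 and 0.258 CPM and was not called. Myl7, an atrial light chain, had no count in any library and Nppa, the atrial peptide, reached at most 0.0644 CPM.

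Both smooth-muscle actin genes rose as well, from very different levels. Acta2 was at 847 and 851 CPM at day 0 and at 2323 and 2166 CPM with DMSO. It was thus already abundant before differentiation and rose 2.64-fold, with a log2 fold change of 1.40 (SE 0.0291, adjusted p = 5.28e-29). Actg2, the enteric form, was at 36.9 and 34.7 CPM at day 0 and at 113 and 94.2 CPM with DMSO. Its rise was 2.89-fold with a log2 fold change of 1.53 (SE 0.0882, adjusted p = 2.56e-06), and its DMSO replicates lay further apart than those of any other gene of the 10 in proportion to their mean. The count of Actg2 per count of Acta2 stayed between 0.0408 and 0.0485 in all 6 libraries. Markers of differentiated smooth muscle, all 5 of them also in the list of SRF and smooth-muscle genes below, were measured beside these genes: the summed level of Myh11, Cnn1, Smtn, Myocd and Lmod1 was 183 to 188 CPM at day 0, 190 to 202 CPM with DMSO and 192 to 193 CPM with 4-PBA. Most of that sum was Smtn, at 175 CPM at day 0 and 172 CPM with DMSO, which was not called. Cnn1, the smooth-muscle calponin, rose from 3.88 to 12.3 CPM (log2 fold change 1.67, adjusted p = 7.26e-16) and Lmod1, a leiomodin, from 5.97 to 11.2 CPM (0.91, adjusted p = 1.25e-09). Myh11, the smooth-muscle myosin heavy chain, was at 0.0712, 0.157 and 0.298 CPM on average at day 0, with DMSO and with 4-PBA. Myocd, the smooth-muscle and cardiac coactivator of SRF, was at 0.290, 0.183 and 0.169 CPM. Neither was called with DMSO against day 0 or between 4-PBA and DMSO. With 4-PBA against day 0, 3 of these 5 markers were called higher and 1, Smtn, lower (-0.096, adjusted p = 0.0133). Myh11 was among the 3 (log2 fold change 1.86, adjusted p = 0.0326) and Myocd was not called. The part of such cells in the rise of Acta2 and Actg2 was not tested.

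The cytoplasmic actin genes fell together. Actb was at 4228 and 4288 CPM at day 0 and at 3341 and 2994 CPM with DMSO. Its DMSO replicates differed, yet both lay below both day 0 libraries, and Actb fell by 0.43 on the log2 scale (SE 0.0421, adjusted p = 3.45e-06), a change of -25.6%. Actg1 was at 4425 and 4418 CPM at day 0 and at 3374 and 3063 CPM with DMSO, and fell by 0.46 (SE 0.0333, adjusted p = 3.49e-10), a change of -27.2%. Their ratio hardly moved: Actb had 0.955 to 0.991 counts per count of Actg1 in all 6 libraries. Since Actb is often used as a reference gene, Acta1 is given also relative to it. Acta1 had 0.00924 and 0.00869 counts per count of Actb in the day 0 libraries and 0.508 and 0.587 with DMSO. That change came mostly from the rise of Acta1.

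The tropomyosin genes split into a rising and a falling pair. Tpm2 rose most, from 250.2 and 257 CPM at day 0 to 1046 and 1119 CPM with DMSO, which is 4.27-fold and a log2 fold change of 2.09 (SE 0.0316, adjusted p = 5.41e-33). Tpm1 went from 549.8 and 557 CPM to 1150.3 and 1131 CPM, which is 2.06-fold and a log2 fold change of 1.04 (SE 0.0273, adjusted p = 2.62e-27). Day 0 and DMSO libraries did not overlap for either gene. Tpm3 fell by 0.36 on the log2 scale (SE 0.0303, adjusted p = 6.29e-13), from 308 and 314 CPM to 241 and 242 CPM, and Tpm4 fell by 0.34 (SE 0.0297, adjusted p = 2.90e-12), from 842 and 866 CPM to 693 and 659.6 CPM. Tpm3-rs7, the near-copy of Tpm3, was at 1.69 CPM at day 0 and 0.852 CPM with DMSO, so the counts assigned to it were few beside those of Tpm3. How reads that fit both genes were counted is not known.

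**Figure D1:**
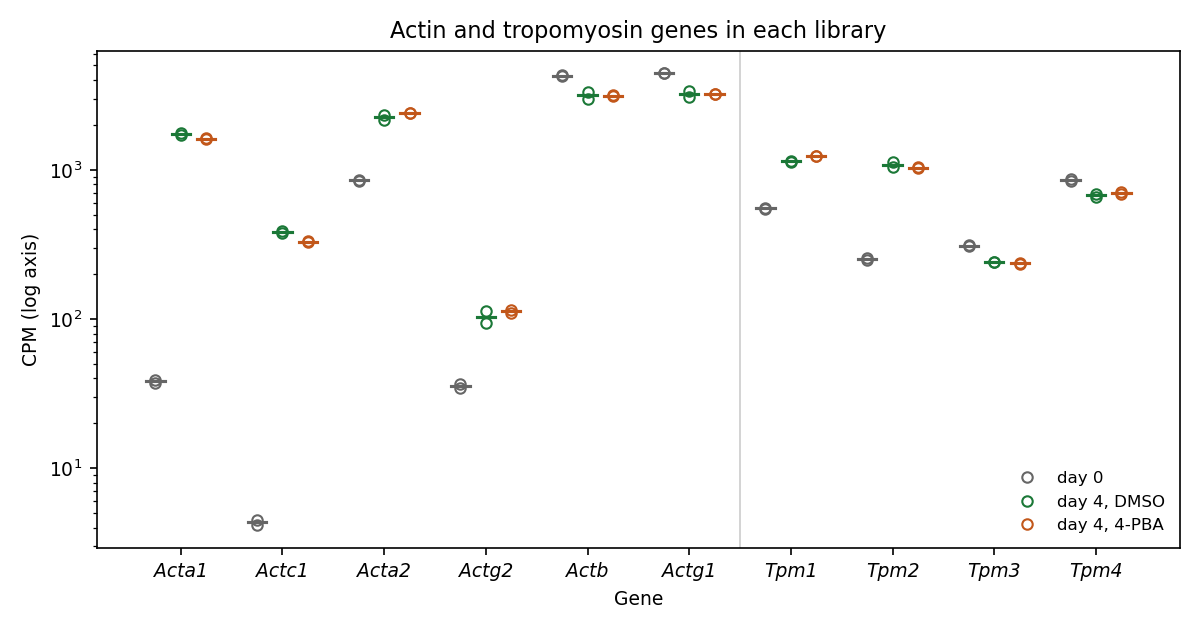
Level of each actin and tropomyosin gene in CPM (log axis) in the 2 libraries of each group; circles are libraries and short lines are group means. Acta1 and Actc1 stand far higher at day 4 than at day 0, Acta2, Actg2, Tpm1 and Tpm2 moderately higher, and Actb, Actg1, Tpm3 and Tpm4 lower, while the 2 day 4 groups lie close together for every gene.

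Differentiation changed the make-up of the actin counts more than their sum. Summed over the 6 actin genes, the level was 9579.97 and 9633 CPM at day 0 and 11227 and 10464 CPM with DMSO, a ratio of means of 1.13. The share of actin counts from Acta1 and Actc1 was 0.451% and 0.434% in the day 0 libraries and 18.5% and 20.5% in the DMSO libraries. The smooth-muscle pair held 9.21% ± 0.0240 at day 0 and 21.6% ± 0.0662 with DMSO, and the cytoplasmic pair 90.3% ± 0.0363 and 58.8% ± 1.36 (SD, n = 2). Cytoplasmic actins thus still held the larger part of the actin counts at day 4. Summed over the 4 tropomyosin genes the level was 1950 and 1994 CPM at day 0 and 3130 and 3152 CPM with DMSO, a ratio of 1.59. Tpm1 and Tpm2 together held 40.9% ± 0.122 of tropomyosin counts at day 0 and 70.8% ± 0.864 with DMSO, while Tpm4 went from 43.3% ± 0.170 to 21.5% ± 0.857. Within the striated pair, Acta1 held 89.8% ± 0.841 of the counts at day 0 and 81.8% ± 0.128 with DMSO. In each of these shares, the day 0 and DMSO libraries did not overlap, and the half-width of the 95% Wilson interval, which covers counting error only, was at most 1.34 percentage points in any library. The two-sided exact permutation p was 0.333, the smallest that 2 libraries against 2 allow.

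**Figure D2:**
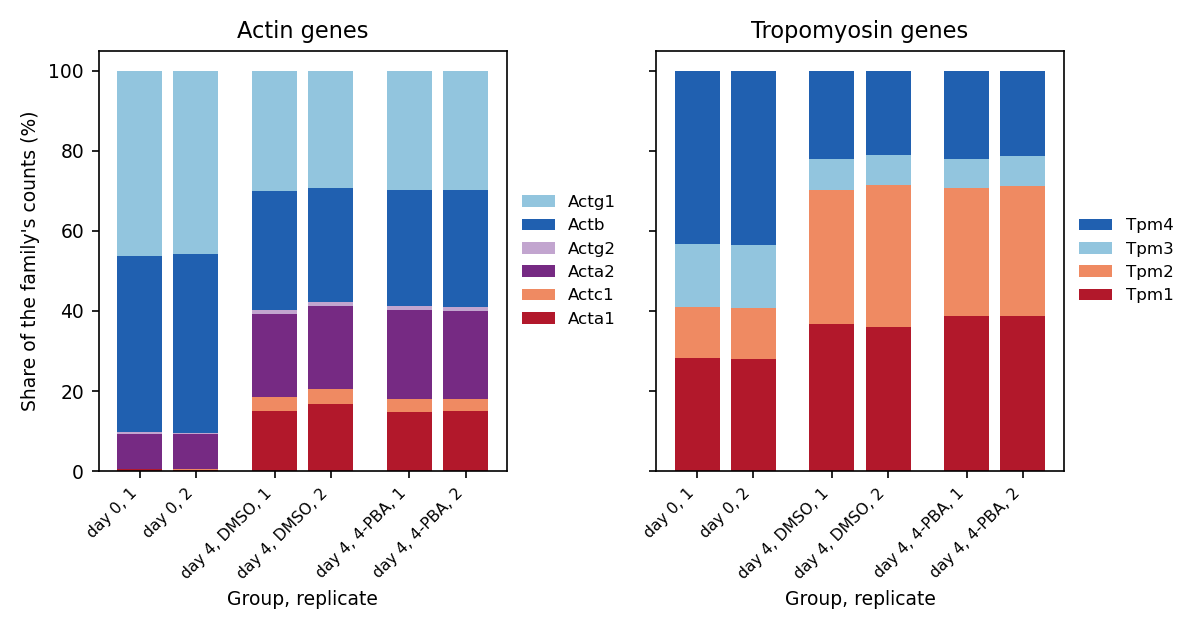
Share of each gene in the counts of the 6 actin genes (left) and the 4 tropomyosin genes (right), in percent, with 1 stacked bar per library. The striated actins Acta1 and Actc1 are barely visible at day 0 and hold 18.0% to 20.5% at day 4, and Tpm1 with Tpm2 goes from 40.9% and 41.0% to at least 70.2%.

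Per kb of merged exons, the order of levels changed with differentiation. At day 0 the order was Actg1 (2265 ± 2.47 CPM per kb), Actb (2218 ± 22.1), Acta2 (417 ± 1.35), Tpm4 (401 ± 7.87), Tpm1 (116 ± 1.10), Tpm2 (107 ± 2.10), Tpm3 (93.6 ± 1.18), Acta1 (26.4 ± 0.878), Actg2 (26.2 ± 1.14) and Actc1 (2.94 ± 0.172). Of the neighbours in that order, the libraries of Acta1 and Actg2 overlapped and those of the other pairs did not. With DMSO, Actb (1649.9 ± 128) and Actg1 (1649 ± 112) led with overlapping libraries, followed by Acta1 (1195 ± 29.9) and Acta2 (1103 ± 54.5), whose libraries did not overlap. By merged exons, Acta1 thus passed from rank 8 to rank 3 of the 10 genes, and Actc1 from rank 10 to rank 7 at 261 ± 4.30 CPM per kb. With 4-PBA the ranks of Acta1 and Acta2 were exchanged, at 1119 ± 16.7 and 1174 ± 2.21 CPM per kb. The order depended in part on the length used. Per kb of the median coding transcript, Actb (2693 ± 26.9) stood above Actg1 (2420.0 ± 2.64) at day 0, Tpm3 (142 ± 1.80) above Tpm2 (121 ± 2.38), and Actg2 above Acta1, whose libraries still overlapped. Tpm1 moved furthest with DMSO, since its merged exons span 4780 bases and its median coding transcript 1642 bases: it had rank 8 by the first (239 ± 2.89) and rank 5 by the second (695 ± 8.40).

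Differentiation with 4-PBA was compared with the same day 0 libraries, which that comparison and the one with DMSO share. Again all 10 genes were called, 6 higher and 4 lower, beside 65.6% of all genes, 33.2% higher and 32.4% lower, with a median log2 fold change of 1.33 over the 10 genes and 0.018 over all genes. With the drug Acta1 averaged 1619 ± 24.2 CPM, a log2 fold change of 5.41 (SE 0.0353, adjusted p = 6.78e-45). Actc1 averaged 330.1 ± 2.97 CPM, a log2 fold change of 6.24 (SE 0.0468, adjusted p = 1.70e-43). The log2 fold changes of the other rising genes were 1.49 for Acta2, 1.65 for Actg2, 1.16 for Tpm1 and 2.02 for Tpm2. Actb fell by 0.44, Actg1 by 0.45, Tpm3 by 0.39 and Tpm4 by 0.30 on the log2 scale. Each of these falls was smaller than the median log2 change over all genes without regard to sign, 0.467. Each gene moved in the direction it had with DMSO.

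Whether the drug altered these levels was asked of the 4-PBA and DMSO libraries directly. Actc1 and Acta1 were lower with 4-PBA and Tpm1 was higher, each by less than 16%, and the other 7 genes did not pass the test. These 3 calls among 10 genes, 1 higher and 2 lower, stand beside 4.90% of all genes called, 2.13% higher and 2.78% lower. The libraries of the groups did not overlap for 6 of the 10 genes and for 45.5% of all genes. The median log2 fold change was -0.0030 over the 10 genes and 0.0021 over all genes. Without regard to sign, the median log2 difference over all genes was 0.0936. The difference in Acta1 (-0.0940) was about that size, that in Tpm1 (0.117) little larger and that in Actc1 (-0.220) larger. The differences were small against those of differentiation: in size they were 1.71% of the log2 change from day 0 with DMSO for Acta1, 3.40% for Actc1 and 11.2% for Tpm1.

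Actc1 was at 332 and 328 CPM with 4-PBA, below the 380 and 389 CPM of the DMSO libraries. The difference was -14.1%, a log2 fold change of -0.22 (SE 0.0311, 95% interval -0.28 to -0.16, adjusted p = 1.64e-05), and it passed the threshold under each of the 14 other settings run, with adjusted p-values up to 0.0052. Acta1 was at 1601 and 1636 CPM with 4-PBA against 1697 and 1758 CPM, a difference of -6.30% or -0.094 on the log2 scale (SE 0.0282, 95% interval -0.15 to -0.037, adjusted p = 0.0450). That call lay at the edge of the threshold and was lost under 9 of the 14 other settings. Among these were fits without either day 0 library (adjusted p = 0.0924 and 0.0872), without DMSO replicate 2 (0.136), without either 4-PBA library (0.461 and 0.229), with only the 4 libraries compared (0.0888), with DESeq2 size factors (0.0519) and with scaling by library size only (0.0710). In counts, Acta1 made up 82.8% and 83.3% of the striated pair with 4-PBA and 81.7% and 81.9% with DMSO. The 5 cardiac markers summed to 8.55 to 9.84 CPM with 4-PBA, with Myh6 called lower (log2 fold change -0.48, adjusted p = 0.00815); their part in the difference in Actc1 was not tested.

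Tpm1 was at 1241 and 1233 CPM with 4-PBA, above the 1150.3 and 1131 CPM with DMSO. The difference was 8.43%, a log2 fold change of 0.12 (SE 0.0269, 95% interval 0.062 to 0.17, adjusted p = 0.00637), and the call was lost without either 4-PBA library (adjusted p = 0.169 and 0.133), where the remaining library was taken to vary like those of the other groups. Tpm2, its partner in differentiation, was at 1024 and 1036 CPM against 1046 and 1119 CPM, a log2 difference of -0.072 (95% interval -0.13 to -0.010, adjusted p = 0.199). The share of Tpm1 and Tpm2 together was 70.6% and 71.1% with 4-PBA, within the 70.2% and 71.4% of the DMSO libraries. Within that share, Tpm2 had 0.826 and 0.841 counts per count of Tpm1 with 4-PBA and 0.910 and 0.990 with DMSO.

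Acta2 was at 2392 and 2386 CPM with 4-PBA and did not pass the test, with a log2 difference of 0.090 (95% interval 0.032 to 0.15, adjusted p = 0.0606). It passed with scaling by library size only (adjusted p = 0.0234), with no filter beyond 1 count (0.0201), with limma-voom (0.0246) and without DMSO replicate 1 (4.32e-06), where the difference was 0.14. For 5 other genes the 95% interval of the log2 difference included 0. It ran from -0.10 to 0.082 for Actb, from -0.065 to 0.075 for Actg1, from -0.090 to 0.034 for Tpm3, from -0.021 to 0.10 for Tpm4 and from -0.073 to 0.32 for Actg2, which was the widest. Actg2 was at 109.9 and 115 CPM with 4-PBA, around the 113 CPM of DMSO replicate 1 and above the 94.2 CPM of replicate 2.

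Several of these differences turned on which DMSO library was used. Without DMSO replicate 1, 8 of the 10 genes were called, 5 higher and 3 lower, and without either 4-PBA library only Actc1 was. Actb was called in opposite directions without DMSO replicate 1 (log2 difference 0.069, adjusted p = 0.0331) and without replicate 2 (-0.087, adjusted p = 0.00426). Actg1 was called only without replicate 1 (0.076, adjusted p = 0.0135), as were Actg2 (0.25, adjusted p = 1.20e-05) and Tpm2 (-0.12, adjusted p = 9.39e-04). In CPM, DMSO replicate 1 was above replicate 2 for Acta2, Actg2, Actb, Actg1, Tpm1 and Tpm4 and below it for Acta1, Actc1, Tpm2 and Tpm3.

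**Figure D3:**
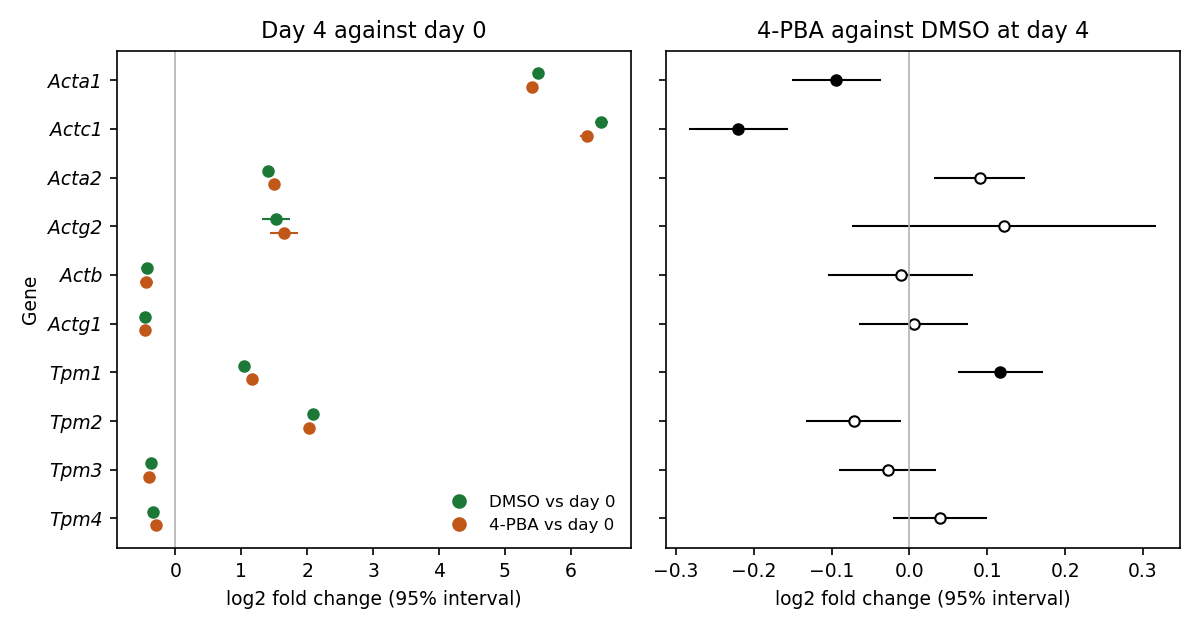
Log2 fold changes with 95% intervals of day 4 against day 0 (left, with DMSO and with 4-PBA, which share the day 0 libraries) and of 4-PBA against DMSO at day 4 (right, on a narrower axis). Filled circles passed an adjusted p under 0.05 in edgeR; on the right these are Acta1 and Actc1 below 0 and Tpm1 above 0.

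Genes whose products work with actin and tropomyosin were followed in 4 lists. The lists were chosen with earlier results of these data known, so their counts beside the shares of all genes are descriptions only. Partners of the sarcomeric thin filament and Z-disc rose with differentiation: 13 of 14 were called higher with DMSO and 1 lower, where 33.8% of all genes were called higher and 32.6% lower, with a median log2 fold change of 2.32. Actn2, the Z-disc alpha-actinin, rose by 6.61 on the log2 scale, Lmod2, which nucleates and lengthens thin filaments, by 6.47, Smpx, a small muscle protein, by 6.13 and Neb, the giant nebulin that runs along the thin filament, by 6.08. The exception was Tmod4, a thin-filament pointed-end cap (named after its value was seen), which fell from 1.39 to 0.739 CPM. With 4-PBA in place of DMSO, 5 of the 14 were called lower and none higher, beside 2.78% of all genes lower and 2.13% higher, with a median of -0.13. Neb was at 359 and 364 CPM with 4-PBA against 456 and 489 CPM, a log2 difference of -0.39 (SE 0.0346, adjusted p = 1.94e-08). Nrap, which acts in myofibril assembly, was also lower (log2 fold change -0.24, adjusted p = 0.00170). Actn3, the alpha-actinin of fast fibres, differed by -0.12 (adjusted p = 0.00962), and the other 2 called genes, Xirp1 (-0.15) and Pdlim3 (-0.14), are named here after their values were seen. Nrap was not called without 4-PBA replicate 1 (adjusted p = 0.145), and Actn3 was not called without DMSO replicate 2 (0.0545) or either 4-PBA library (0.207 and 0.110). The number called was 8 without DMSO replicate 1 or with no filter beyond 1 count, 3 without DMSO replicate 2 and 1 without 4-PBA replicate 1.

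Cytoplasmic actin regulators mostly fell with DMSO, with 21 of 32 called lower and 5 higher, beside 32.6% and 33.8% of all genes, and a median log2 fold change of -0.20. Diaph3, a formin that assembles unbranched filaments, fell by 1.58 and Ezr, which links filaments to the membrane, by 0.87 on the log2 scale. The actin monomer-binding thymosins went the other way: Tmsb10 rose from 807 to 1482 CPM (log2 fold change 0.88) and Tmsb4x from 801 to 1252 CPM (0.64). Msn, a relative of Ezr, rose by 0.39. Between 4-PBA and DMSO, 1 of the 32 was called, Pfn2, a profilin that was 20.1% higher with 4-PBA (log2 fold change 0.26, adjusted p = 0.0284), beside 4.90% of all genes. Pfn2 itself was not called with the DESeq2 Wald test (adjusted p = 0.0526), without DMSO replicate 2 (0.144) or without either 4-PBA library (0.363 and 0.0563). Tmsb4x (0.086, adjusted p = 0.0541) and Msn (-0.074, adjusted p = 0.110) did not pass. The number called was 0 without either 4-PBA library, 6 when DMSO replicate 2 was left out and 3 when replicate 1 was; it was 2 with DESeq2 size factors or library size only, 3 with limma-voom and 4 with no filter beyond 1 count.

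The SRF cofactors and smooth-muscle contractile genes were called higher with DMSO in 7 of 12 and lower in 2, a share called not far from the 66.3% of all genes (33.8% higher, 32.6% lower), with a median log2 fold change of 0.70. Tagln, an actin-binding calponin relative, rose by 2.45, Synpo2 by 2.40 and Myl9, a smooth-muscle and non-muscle light chain, by 1.82. The factors themselves moved little: Srf differed by -0.15, Mrtfa by -0.35 and Mrtfb by 0.34 on the log2 scale (adjusted p = 0.00427, 4.88e-11 and 2.46e-08; named after their values were seen), and Myocd was not called. Against DMSO, 4-PBA gave 2 genes called higher and 3 lower, beside 2.13% and 2.78% of all genes. Myl9 was higher by 0.27 (SE 0.0451, adjusted p = 1.52e-04) and Tagln by 0.24 (SE 0.0444, adjusted p = 0.00769), while Synpo2 differed by -0.30 (SE 0.0405, adjusted p = 2.62e-05), Mrtfb by -0.15 and Vcl by -0.10. Tagln was not called without 4-PBA replicate 1 (adjusted p = 0.0568). The 5 calls became 2 without 4-PBA replicate 1, and 3 without 4-PBA replicate 2 or without day 0 replicate 1.

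Actin folding and maturation genes, chiefly the subunits of the chaperonin CCT and of prefoldin that fold newly made actin, were called lower with DMSO in 13 of the 16 tested (of 17 listed, Actmap not analysed here) and higher in 2, beside 32.6% and 33.8% of all genes, with a median log2 fold change of -0.47. Cct7 and Cct6a each fell by 0.84 and Pfdn4 by 0.79 on the log2 scale. Setd3, which methylates actin, was not called (0.050). Between 4-PBA and DMSO edgeR called 0 of the 16, with 2 at an unadjusted p under 0.05; DESeq2 and limma-voom also called 0, and 1 was called without DMSO replicate 1. Cct8 had the smallest p in the list, with a log2 difference of -0.081 (adjusted p = 0.143), followed by Pfdn6 (0.13, adjusted p = 0.249) and Pfdn4 (0.14, adjusted p = 0.316).

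**Figure D4:**
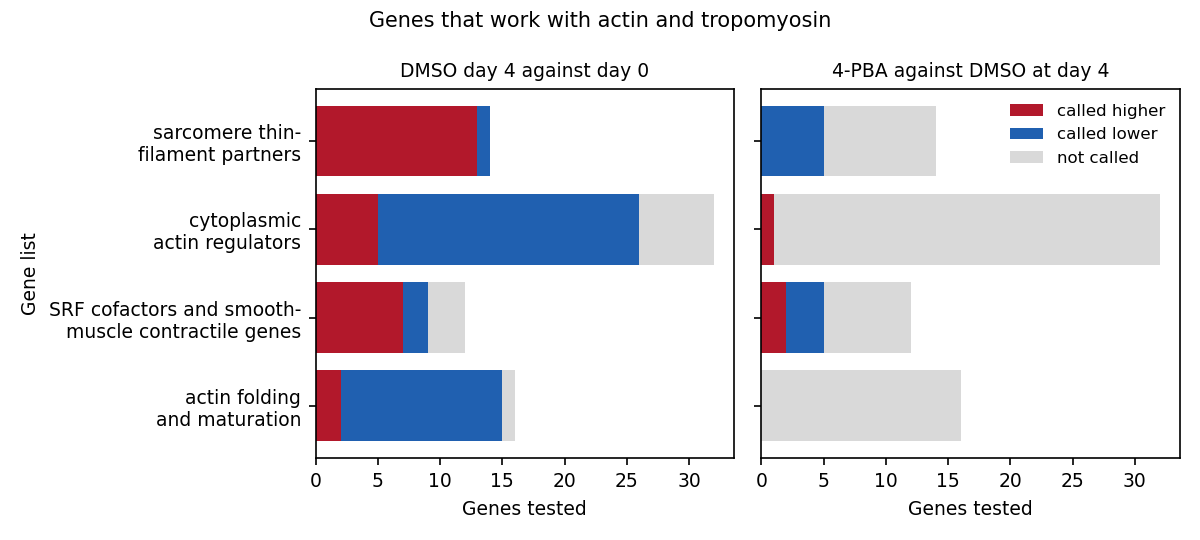
Number of genes tested in each of 4 lists that were called higher (red), lower (blue) or not called (grey) by edgeR, for DMSO day 4 against day 0 (left) and 4-PBA against DMSO at day 4 (right). On the left 13 of 14 thin-filament partners are higher and 13 of 16 folding genes lower, and on the right most genes of each list are not called.

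Genes outside the 10 with the most similar profile over the 6 libraries were found among 8062 genes with a mean of at least 20 CPM, by the Euclidean distance between log2 CPM values centred on each gene's mean. The nearest to Acta1 were Myom3, an M-band protein (distance 0.0511), and Mylpf, the fast regulatory light chain (0.0852), and the nearest to Actc1 were 5430431A17Rik (0.167) and Lmod2 (0.245). Acta2 lay nearest to Olfml2b (0.0819), Actg2 to Fbln5, an elastic-fibre protein (0.180), Tpm1 to Mical1, an enzyme that oxidises actin (0.0543), and Tpm2 to Aldh3b1 (0.0977). Actb and Actg1 had the same nearest gene, Por, cytochrome P450 reductase, at 0.0341 and 0.0103. Tpm3 lay nearest to Rpl5, a ribosomal protein (0.0163), and Tpm4 to Usp31 (0.0309). These distances are set mostly by the size of the change from day 0 to day 4, which all 6 libraries share, and are descriptions of likeness in these libraries.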

How the data were processed

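RNA sequencing counts from 6 libraries of C2C12 cells were analysed, 2 per group. Per the labels, DNase-treated RNA went into a strand-marking library kit. The authors deposited raw whole-number counts, 1 column per library and 1 row per symbol, with 0 columns of no listed sample. The submitters' processing notes name the build GRCm39; the aligner, counter, annotation and strand setting are not given in the sources used here. The genes and lists were chosen with earlier results of these data known.

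Tests on the deposited counts used edgeR 4.0.16 under R 4.3.3 (filterByExpr, TMM, robust glmQLFit, 1 mean per group over all 6 libraries, 3 residual degrees of freedom). The spread borrowed from all genes added a median of 30.4 prior degrees of freedom. Each SE was taken as the absolute log2 fold change over the root of the F statistic. Total counts were 47908926 to 74697397, and replicates differed beyond sampling noise (chi-square per degree of freedom 3.77 at day 0, 6.64 with DMSO, 5.34 with 4-PBA). edgeR's common biological coefficient of variation came to 3.74%. The labels put all libraries in batch 1. Named genes were the 10 members and, in each list, the 3 with the smallest adjusted p between 4-PBA and DMSO, the 3 with the largest called change with DMSO, the 2 nearest profiles per member, and Myod1, Myog, Myh3 and Mki67. Marker lists covered myoblasts, myotubes, smooth muscle, fibroblasts, adipocytes, endothelium, macrophages and blood, and cardiac muscle; the myoblast list summed to 2791 to 2802 CPM with 4-PBA. Of 4 near-copies listed, Tpm3-rs7 passed the filter. Lengths, overlaps and transcripts came from GENCODE M21, and start regions from RefSeq (GRCm38.p6). On counts simulated for 4-PBA against DMSO (16979 genes), edgeR called 43 of 50 genes changed 1.25-fold, 44 of 50 changed 1.5-fold, 48 of 50 changed 2-fold and 50 of 50 changed 4-fold. No change under 1.25-fold was simulated, so it gives no rate for differences as small as those of the 10 genes between these groups. Alternatives were DESeq2 1.42.0 size factors and Wald test, library size only, 2 other filters, limma-voom (limma 3.58.1), a replicate block, fits of the 4 libraries compared, an adjusted p under 0.01, a minimum change of 2-fold, counts per kb, and leaving out each library. Alignments used Biopython 1.88 and figures matplotlib 3.10.9.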

Additional observations from a re-analysis of the deposited data

Results flagged for a closer look

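Some genes changed from day 0 to a different extent with 4-PBA than with DMSO, by the edgeR test of the difference between the 2 day 4 groups. Among the actin and tropomyosin genes these were Actc1 (log2 difference, 4-PBA minus DMSO, -0.22), Acta1 (-0.094) and Tpm1 (0.117). Among the named genes of the 4 partner lists they were Neb (-0.387), Nrap (-0.245), Actn3 (-0.123), Synpo2 (-0.303), Pfn2 (0.264), Tagln (0.239) and Myl9 (0.275). The calls of Acta1, Tpm1, Nrap, Actn3, Pfn2 and Tagln were each lost in 1 or more fits with a library left out, with the values given above, while those of Actc1, Neb, Synpo2 and Myl9 were kept in each.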

How the results depend on the processing

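For each comparison with day 0, all 10 genes were called in the same direction under every alternative except a minimum change of 2-fold, which 6 genes met with DMSO and 6 with 4-PBA. Between 4-PBA and DMSO, 0 genes met that minimum, and leaving out each library in turn gave 1 to 8 calls. Without 1 library the log2 difference between 4-PBA and DMSO ranged from -0.0010 to 0.25 for Actg2, from -0.087 to 0.069 for Actb and from -0.062 to 0.076 for Actg1; among other named genes it was -0.010 to 0.10 for Tmsb10, -0.020 to 0.026 for Ezr, -0.013 to 0.075 for Cct7, -0.045 to 0.058 for Myog and -0.030 to 0.069 for Myh3. Pfn2 ranged from -0.12 to 0.00018 for 4-PBA against day 0. Shares per kb of merged exons moved beyond the replicate SD: the striated share of actin was 0.592% in day 0 libraries, 24.6% in DMSO libraries and 22.8% in 4-PBA libraries; the share of Acta1 in the striated pair was 82.1% with DMSO; and the share of Tpm1 and Tpm2 was 31.0%, 64.0% and 63.5%. Per kb of the median coding transcript, chosen after seeing the data, the last share was 45.7%, 73.9% and 74.1%.

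No shift shared by same-numbered libraries was seen: their deviations correlated at -0.0279 (day 0 and DMSO), -0.00306 (day 0 and 4-PBA) and -0.0116 (DMSO and 4-PBA) over 17433 genes. Whether same-numbered libraries were cultured or handled together is not known from these values. With the replicate block, 10 genes were called with DMSO and 10 with 4-PBA against day 0, and 2 between 4-PBA and DMSO, where Acta1 was not called (adjusted p = 0.0869). Alternatives for the partner lists were chosen after seeing the data.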
